A study of Homo sapiens with 18 samples.

Results

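This account covers 9 genes of cellular metal handling, chosen by name after earlier results of these data were known: the metallothioneins MT1E, MT1F, MT1G, MT1H, MT1M, MT1X and MT2A, the zinc-sensing transcription factor MTF1 and the zinc exporter SLC30A1. All probe sets annotated to these genes were taken, which gave 17 of the 54613 probe sets, for 9 of the 19775 named genes on the array. Of the 17, 14 passed the filter on low intensity and were tested. The other 3, namely MT1G 210472_at, MT1M 217546_at and SLC30A1 242716_at, lay at or under the floor of 32 on all 18 arrays. MT1M has therefore no measured level here. The levels of the members under DMSO and their differences between A-485 and DMSO were used to choose them, so both are given as a description. Where the fit across all probe sets called a member, the call is printed beside the share of all probe sets called and is no independent evidence.

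Affymetrix HG-U133 Plus 2.0 arrays, 18 in all, measured RNA in the melanoma lines SKMEL5, WM2664 and A375, 3 BRAF-mutant cultures of human origin. The cells received the solvent DMSO or A-485, a small molecule that blocks the acetyltransferase activity of the coactivators p300 and CBP, and were collected after 6 h or 24 h. Each line had 2 DMSO arrays and 1 A-485 array at each time, and all cells grew in RPMI with fetal bovine serum, which itself carries zinc. The A-485 dose was labelled 3.0 mM throughout, a unit that was not checked here. The series set sensitive against resistant lines without naming which is which. Each line is 1 established culture, no inactive analogue or metal treatment was among the samples, and with 1 A-485 array a group the treated side has no spread of its own.

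Metallothioneins are small, cysteine-rich proteins that bind zinc and copper and buffer the free metal in the cell. When free zinc rises, MTF1 moves to metal response elements in the promoters of the metallothionein genes and of SLC30A1 and raises their transcription. SLC30A1, also called ZnT1, sits in the plasma membrane and carries zinc out of the cell. Both kinds of gene are thus targets of the same zinc sensor, the metallothioneins storing the metal and the exporter removing it.

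The promoters of the members the results turn on are shown because the metallothioneins and SLC30A1 moved apart under A-485. The RefSeq promoter table of build GRCh38.p14 held 5 of the 9 members, and MT1E, MT1F, MT1G and MT1M were not matched. The 250 bases before the start of each gene are printed 5′ to 3′ on the strand of the gene, and capitals mark matches to TGCACNC or TGCGCNC, the core of the metal response element, searched on both strands. The windows are chr16:56608334-56608583 for MT2A, chr16:56682220-56682469 for MT1X and chr16:56669564-56669813 for MT1H, all on the + strand, and chr1:211579162-211579411 for SLC30A1 on the - strand.
MT2A: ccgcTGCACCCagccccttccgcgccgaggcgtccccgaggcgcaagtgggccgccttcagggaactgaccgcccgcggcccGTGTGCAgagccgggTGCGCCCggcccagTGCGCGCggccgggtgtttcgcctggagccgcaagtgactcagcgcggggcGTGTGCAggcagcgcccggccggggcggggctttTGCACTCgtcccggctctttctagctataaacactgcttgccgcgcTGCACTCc
MT1X: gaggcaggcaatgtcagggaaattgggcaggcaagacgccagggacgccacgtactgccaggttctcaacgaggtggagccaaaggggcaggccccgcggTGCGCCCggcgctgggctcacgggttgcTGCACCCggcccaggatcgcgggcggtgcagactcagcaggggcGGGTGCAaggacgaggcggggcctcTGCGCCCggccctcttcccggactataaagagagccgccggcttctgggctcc
MT1H: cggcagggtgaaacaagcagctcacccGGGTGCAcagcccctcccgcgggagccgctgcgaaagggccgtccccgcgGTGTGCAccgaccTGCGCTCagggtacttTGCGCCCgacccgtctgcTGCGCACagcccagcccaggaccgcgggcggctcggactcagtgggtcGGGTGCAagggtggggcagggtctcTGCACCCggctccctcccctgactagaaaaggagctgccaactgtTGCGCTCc
SLC30A1: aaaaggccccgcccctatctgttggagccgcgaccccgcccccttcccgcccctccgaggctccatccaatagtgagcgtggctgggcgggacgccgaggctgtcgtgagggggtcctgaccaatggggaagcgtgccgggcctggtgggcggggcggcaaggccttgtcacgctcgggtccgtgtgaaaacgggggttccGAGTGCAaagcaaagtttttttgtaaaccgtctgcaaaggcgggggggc
MT1H held 8 matches, MT2A 7 and MT1X 4, and no match overlapped another. SLC30A1 held 1 match, and the window of MTF1 at chr1:37859593-37859842 on the - strand held 0. Among the 27305 promoters of the table, 24.7% held at least 1 match, 0.366% at least 4 and 0.033% at least 7. These are matches of letters and not sites shown to be bound, and no match says only that the letters are not in this window.

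Replicate DMSO arrays correlated at 0.986 to 0.992 across probe sets. Whether the paired DMSO samples came from separate cultures is not labelled. The p-values here measure the spread between such samples, possibly a technical one, and take each single A-485 array to vary as the DMSO pairs do. Of 7 melanocyte lineage markers on the array, 7 lay above the floor on every array in SKMEL5 and in WM2664, but in A375 only MITF, PMEL and SOX10 did. Their summed scaled intensity ran from 37595 to 48741 in SKMEL5, from 18285 to 34746 in WM2664 and from 392 to 1943 in A375. The 4 leukocyte markers on the array were at the floor on all SKMEL5 and WM2664 arrays, and of the keratinocyte and epithelial markers only CDH1 in SKMEL5 and KRT14 in A375 were above it on all arrays of a line, as was LYZ, a leukocyte marker, in A375. Of the fibroblast markers, COL1A1, DCN and LUM were above it on every SKMEL5 array, COL1A1 and COL1A2 on every WM2664 array and COL1A1 and LUM on every A375 array. Of 3 endothelial markers, only PECAM1 was above it throughout a line, and that held in all 3 lines. With A-485, in order of SKMEL5, WM2664 and A375, 3, 2 and 2 melanocyte markers fell at 6 h and 2, 3 and 2 at 24 h, and none rose. CDH1 fell in SKMEL5 (−1.07 at 6 h and −1.76 at 24 h, log2), KRT14 in A375 (−0.89 and −1.76), and COL1A2 rose in WM2664 at 24 h by 0.96. The part of these changes in the results was not tested.

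In 3 DMSO arrays, transcripts that belong to another line appeared above their usual floor. The first WM2664 DMSO array at 6 h showed 7 such probe sets at a median 1.59% of their level in SKMEL5. The first A375 DMSO array at 6 h showed 15 such sets at 0.93%. The second WM2664 DMSO array at 24 h showed 0.924% of the SKMEL5 level over 3 sets and 0.919% of the A375 level over 17. The measure is noisy with few sets: the WM2664 A-485 array at 6 h gave −1.34% of the SKMEL5 level over 2 sets. Values without these 3 DMSO arrays are given below for the calls of the metallothioneins, MTF1, SLC30A1 and the related gene lists. For the melanocyte lineage markers, the 6 h medians without them were −0.28, −0.53 and 0 in SKMEL5, WM2664 and A375. With all arrays they were −0.28, −0.62 and −1.13 (log2). More of these markers were then called lower in WM2664 at both times and in SKMEL5 at 24 h, fewer in SKMEL5 at 6 h and as many in A375.

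The platform reads the metallothioneins through probes that their near-identical sequences share. All 9 tested metallothionein probe sets have the suffix _x_at, which marks probes that also match other transcripts, so 1 transcript can light several of them and the 9 sets are not 9 independent readings. MT1X 204326_x_at carries an accession that RefSeq gives to MT1L, a further copy in the cluster. MTF1 205322_s_at and 205323_s_at have the suffix _s_at, given to probes shared by transcripts of 1 gene or family, whereas MTF1 227150_at and both tested SLC30A1 sets have unshared probes. Intensities of different probe sets are not comparable with each other, so levels are compared only within a probe set.

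Under DMSO the metallothioneins differed widely between the lines, lowest in SKMEL5 in every one of the 9 sets. MT2A, a widely expressed human metallothionein, read 387 and 355 on the 6 h arrays of SKMEL5 and 363 and 613 on its 24 h arrays. WM2664 gave 3617 and 3850, then 3727 and 3675. A375 gave 6251 and 6326, then 6417 and 6839. The 3 lines did not overlap, in the order SKMEL5, WM2664, A375. These are scaled intensities, the deposited linear values after quantile normalization between arrays. In bulk RNA, fewer cells carrying a transcript and less of it per cell cannot be told apart.

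The same order without overlap held for MT1F, MT1G, MT1H and MT1X. MT1X 208581_x_at ran from 199 to 300 over the 4 SKMEL5 DMSO arrays, from 1404 to 1560 in WM2664 and from 2785 to 3251 in A375. MT1H 206461_x_at ran from 74.9 to 133, from 764 to 945 and from 1748 to 1881. MT1G 204745_x_at ran from 84.2 to 136, from 409 to 704 and from 1257 to 1443. The gap between SKMEL5 and WM2664 was the wider of both gaps in each of these 3 sets on the log scale.

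MT1E, another copy of the MT1 group, did not follow that order. MT1E 212859_x_at ran from 506 to 528 in A375, below the 647 to 783 of WM2664 and above the 48.6 to 72.3 of SKMEL5. MT1E 216336_x_at ran from 627 to 671 in A375 and from 676 to 775 in WM2664, neighbours that barely separated, against 123 to 137 in SKMEL5.

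As log2 differences from limma, SKMEL5 minus WM2664 ran from −3.52 to −1.17 over the 9 metallothionein sets, with a median of −2.69. A375 against the average of SKMEL5 and WM2664 ran from 1.08 to 2.67, with a median of 2.36. All 9 sets were called lower in the first and higher in the second at a Benjamini-Hochberg adjusted p under 0.05, but 68.5% of the 23262 tested probe sets were called in SKMEL5 minus WM2664 and 79.3% in A375 against the others, so the calls say little. MTF1 227150_at was also higher in A375, at 284 to 302 over the 4 DMSO arrays, with 151 to 186 in SKMEL5 and 182 to 210 in WM2664, where both of those lines overlapped. SLC30A1 showed no single order, since its probe sets disagreed. SLC30A1 212907_at was lower in A375, at 840 to 1136, than in SKMEL5, at 1286 to 1555, or WM2664, at 1478 to 1742, which overlapped each other. SLC30A1 228181_at was lowest in WM2664, at 195 to 249, with 266 to 458 in SKMEL5 and 333 to 432 in A375, which overlapped.

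**Figure D1:**
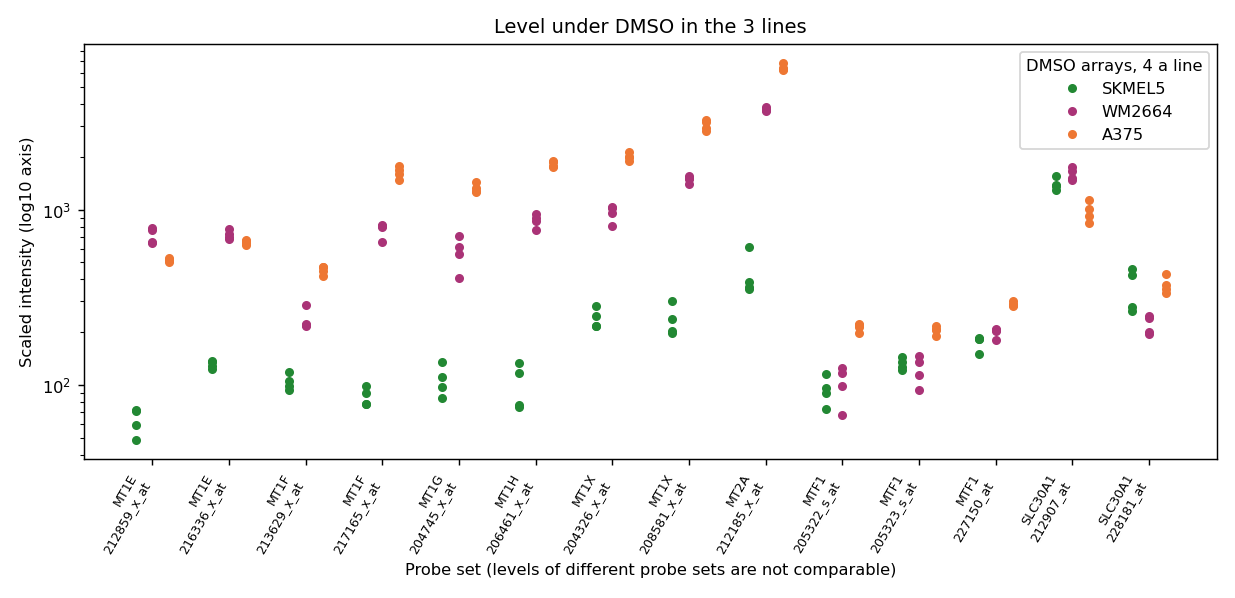
Scaled intensity (log10 axis) of the 14 tested probe sets on the 4 DMSO arrays of each line, 1 point an array, with both times pooled. SKMEL5 has the lowest points in all 9 metallothionein sets, and A375 the highest in 7 of them, the exceptions being the 2 MT1E sets.

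The change between 6 h and 24 h under DMSO alone was not itself used to choose the genes. It comes from the same DMSO arrays as the levels and differences that were, so its p-values are no independent test. No metallothionein set was called: 0 of 9 by limma in any line or in the mean over the lines. Over the 14 tested member sets, 4 in SKMEL5, 1 in WM2664, 1 in A375 and 3 in the mean had an unadjusted p under 0.05. MT1X 208581_x_at came nearest, with 0.41 ± 0.11 (log2, SE) in SKMEL5 (adjusted p = 0.0546) and 0.22 ± 0.06 in the mean (adjusted p = 0.0535). SLC30A1 228181_at fell, by 0.70 ± 0.14 in SKMEL5 (limma, adjusted p = 0.0256, lower in both 24 h arrays than in both 6 h arrays) and by 0.32 ± 0.08 in the mean (adjusted p = 0.0375). SLC30A1 212907_at gave −0.14 ± 0.09 in SKMEL5 (adjusted p = 0.379) and −0.01 ± 0.05 in the mean (adjusted p = 0.899). Across all probe sets 7.09% were called in SKMEL5, 0.795% in WM2664, 0.967% in A375 and 12% in the mean. With the 3 arrays that carry another line omitted, the differences were −0.70 (adjusted p = 0.067) and −0.26 (adjusted p = 0.0982), both without a call. The SKMEL5 call was also lost without either 6 h DMSO array of SKMEL5 or the second of 24 h (adjusted p = 0.0944, 0.106 and 0.105), with differences of −0.75, −0.65 and −0.67. Leaving out 1 DMSO array ended the call in the mean for 10 of the 12 arrays, with values between −0.36 and −0.27.

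After 6 h of A-485 the metallothioneins in WM2664 and A375 were close to their DMSO level, and in SKMEL5 they stood above it. In SKMEL5 the 9 differences ran from 0.28 to 0.69 with a median of 0.48 (log2), a median fold of 1.40. In WM2664 they ran from −0.14 to 0.26 with a median of 0.11, and in A375 from −0.10 to 0.11 with a median of 0.08. The median over all tested probe sets was between 0.025 and 0.034 in these 3 comparisons. The A-485 array lay above both DMSO arrays for 9 of 9 sets in SKMEL5, for 6 in WM2664 and for 6 in A375, beside 45.4%, 46% and 45.8% of all tested probe sets. The small differences in WM2664 and A375 have no settled sign, since with 75th percentile scaling the positive ones went from 7 to 6 of 9 in WM2664 and from 8 to 6 in A375. Without the 3 arrays that carry another line the medians were 0.49, 0.05 and 0.05.

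MT2A in SKMEL5 read 478 with A-485 at 6 h, above both DMSO arrays at 387 and 355. In WM2664 it read 4033, above 3617 and 3850, and in A375 6631, above 6251 and 6326. The differences were 0.37, 0.11 and 0.08 (log2), each ± 0.24, and none was called. MT1X 208581_x_at in SKMEL5 read 314 with A-485, beside 199 and 204, a difference of 0.64 ± 0.13. MT1F 213629_x_at in SKMEL5 read 156, beside 93.6 and 99.6, a difference of 0.69 ± 0.15. These were the 2 metallothionein sets called higher in SKMEL5 at 6 h, where 10.3% of all tested probe sets were called higher and 9.81% lower. None of the 9 was called in WM2664, with 13% called higher and 11.6% lower over all probe sets, or in A375, with 3.47% and 6.07%.

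After 24 h of A-485 the metallothioneins stood higher in all 3 lines. The log2 differences of the 9 sets had medians of 0.77 (SKMEL5), 0.98 (WM2664) and 1.31 (A375), which are folds of 1.71, 1.98 and 2.49, beside a median over all tested probe sets of 0.03 in each line. The ranges were 0.08 to 1.40, 0.87 to 1.42 and 0.75 to 1.81. The A-485 array was above both DMSO arrays for 9 of 9 sets in each line, beside 45% of all tested probe sets in SKMEL5, 45.4% in WM2664 and 45.5% in A375. Called higher were 6 of 9 in SKMEL5, 9 in WM2664 and 7 in A375, and none was called lower. Over all tested probe sets 18.4% were called higher and 15.9% lower in SKMEL5, 16.7% and 14.9% in WM2664, and 6.76% and 7.2% in A375. As the genes were picked with this comparison in view, the counts describe them and support nothing further. Without the 3 arrays that held transcripts of another line, the called sets were 3, 5 and 7, with medians of 0.77, 0.86 and 1.31.

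MT2A in SKMEL5 read 880 with A-485 at 24 h, above DMSO arrays that themselves differed, at 363 and 613. In WM2664 it read 6763, beside 3727 and 3675, and in A375 11175, beside 6417 and 6839. The A-485 array was above both DMSO arrays in each line, and the folds were 1.87, 1.83 and 1.69. On the log2 scale these are 0.90, 0.87 and 0.75, each ± 0.24, of which the A375 value was not called. The A375 reading was among the brightest of its array: 40 probe sets, 0.073%, were at or above it, and it reached 76% of the highest value, 14705. Whether saturation bears on this difference was not tested.

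MT1X 208581_x_at read 456 in SKMEL5 with A-485 at 24 h, beside 300 and 238, then 3090 in WM2664, beside 1560 and 1498, and 6686 in A375, beside 3165 and 3251. The differences were 0.77, 1.01 and 1.06, each ± 0.13. MT1X 204326_x_at differed by 0.69, 0.91 and 1.15, each ± 0.18. The 2 sets named for MT1X thus moved alike, and no line overlapped with its DMSO arrays.

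The MT1F sets gave different pictures of SKMEL5. MT1F 217165_x_at read 250 with A-485 at 24 h in SKMEL5, beside 89.9 and 99.5, then 1883 in WM2664, beside 652 and 805, and 4265 in A375, beside 1675 and 1757. Its folds of 2.64, 2.60 and 2.49 were nearly equal across lines whose DMSO levels differed widely. MT1F 213629_x_at read 119 in SKMEL5, where the DMSO arrays read 106 and, by less than 1 unit lower, 119, then 484 in WM2664, beside 286 and 224, and 1148 in A375, beside 471 and 446. Its differences were 0.08, 0.94 and 1.32, each ± 0.15, so that the SKMEL5 difference lay within its error by this set and was called by the other.

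MT1E had the largest differences of any member, in A375. MT1E 216336_x_at read 2308 there with A-485 at 24 h, beside 644 and 671, a fold of 3.51. In WM2664 it read 1385, beside 775 and 699, a fold of 1.88, and in SKMEL5 156, beside 123 and 137, a fold of 1.21. MT1E 212859_x_at read 1764 in A375, beside 528 and 519, then 1899 in WM2664, beside 652 and 769, and 90.4 in SKMEL5, beside 71.2 and 48.6. With A-485 at 24 h, A375 stood above WM2664 by 216336_x_at and just below it by 212859_x_at.

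MT1G 204745_x_at read 239 with A-485 at 24 h in SKMEL5, beside 111 and 136, then 947 in WM2664, beside 560 and 409, and 3368 in A375, beside 1257 and 1443. MT1H 206461_x_at read 194, beside 74.9 and 118, then 1980, beside 899 and 855, and 4184, beside 1860 and 1881. Both were above their DMSO arrays in every line. The MT1G differences were 0.96, 0.98 and 1.32, each ± 0.21, and those of MT1H 1.05, 1.18 and 1.16, each ± 0.33, the widest error among the metallothioneins.

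**Figure D2:**
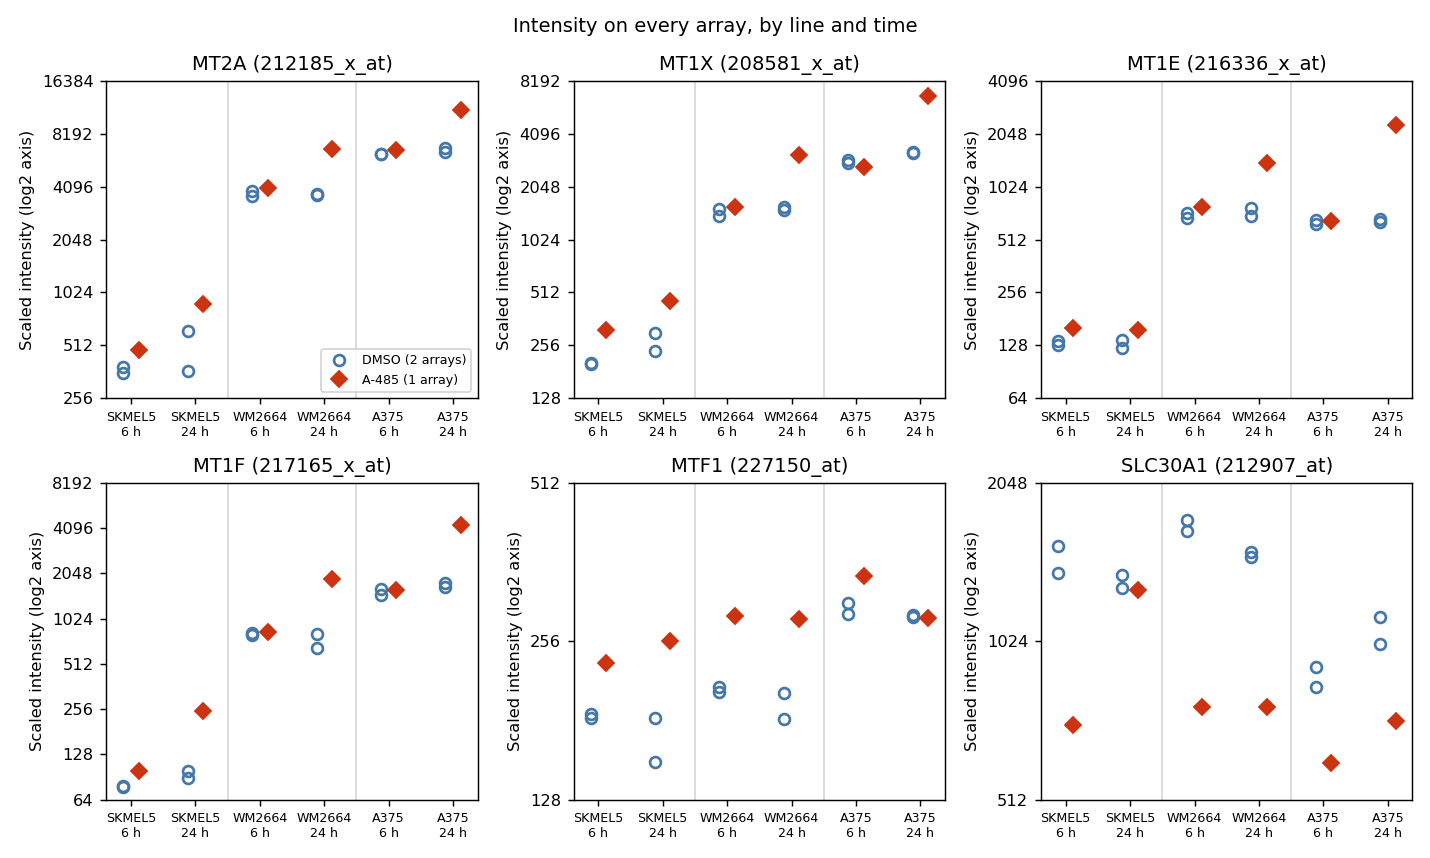
Scaled intensity (log2 axis) of 6 probe sets on every array, by line and time, with open circles for the 2 DMSO arrays and a filled diamond for the A-485 array of a group. At 24 h the diamonds of MT2A, MT1X, MT1E and MT1F lie above both circles in every line, and for SLC30A1 212907_at the diamonds lie below both circles in every group, by little in SKMEL5 at 24 h (1277 beside 1374 and 1286).

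On the SKMEL5 array with A-485 at 24 h, A375 transcripts gave a median excess of 0.307% of the A375 level over 21 probe sets. This is under the 0.5% that marked the carrying arrays. The first SKMEL5 DMSO array at 24 h gave 0.218%, and the first A375 DMSO array at 24 h −0.418% for SKMEL5 transcripts, so a trace was not established. A share of 0.307% of the A375 DMSO level is 19.8 units for MT2A and 5 for MT1F 217165_x_at, beside rises in SKMEL5 of 392 and 155 units. For MT1F 213629_x_at it is 1.38 units, beside a rise of 6.56. Whether carried RNA bears on these rises was not tested.

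MT1HL1, a further gene of the family and the only tested one outside the members, moved with them: of 12 other metallothionein genes listed, 3 were on the array and only MT1HL1 211456_x_at passed the filter. It differed by 0.66, 0.07 and 0.02 at 6 h in SKMEL5, WM2664 and A375 and rose at 24 h by 1.75, 1.14 and 1.02, each ± 0.23 (limma, adjusted p = 0.000763, 0.00656 and 0.0219). Without the 3 carrying arrays the WM2664 and A375 calls were lost, at 1.10 and 1.01, and without scaling the A375 call was lost, at 0.97. Its probes are shared with other transcripts too, so it is no reading apart from the members.

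MTF1, the sensor that drives these genes, gave differences at 24 h below the metallothionein median of each line by all 3 probe sets. MTF1 227150_at read 233 in SKMEL5 with A-485 at 6 h, beside 183 and 186, then 286 in WM2664, beside 210 and 205, and 340 in A375, beside 302 and 289. At 24 h it read 256 in SKMEL5, beside 183 and 151, and 282 in WM2664, beside 204 and 182, but 283 in A375, beside 284 and 287. The A-485 array was above both DMSO arrays in every group but A375 at 24 h. The differences were 0.34, 0.47 and 0.20 at 6 h and 0.62, 0.55 and −0.01 at 24 h, each ± 0.12, and those of WM2664 at 6 h and of SKMEL5 and WM2664 at 24 h were called higher. Without scaling the 24 h differences in SKMEL5 and WM2664 were 0.59 and 0.84, and both calls were lost. The WM2664 call at 6 h was lost without either of its 6 h DMSO arrays (0.49 and 0.45), and both WM2664 calls without the 3 carrying arrays (0.48 and 0.47). MTF1 205322_s_at ran from 0.08 to 0.60, each ± 0.31, and 205323_s_at from −0.12 to 0.53, each ± 0.22, and neither was called in any line or time.

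SLC30A1 was below its DMSO level in all 3 lines at 6 h. The metallothioneins then stood above theirs in SKMEL5 and close to it in WM2664 and A375. SLC30A1 212907_at read 709 in SKMEL5 with A-485 at 6 h, beside 1379 and 1555, then 768 in WM2664, beside 1660 and 1742, and 602 in A375, beside 914 and 840. All A-485 arrays lay below both DMSO arrays, at folds of 0.484, 0.452 and 0.687. In log2 these are −1.05, −1.15 and −0.54, each ± 0.11, and all 3 were called lower. SLC30A1 228181_at read 201, beside 425 and 458, then 139, beside 249 and 201, and 273, beside 374 and 432. It too was below both DMSO arrays in each line, by −1.14, −0.69 and −0.56, each ± 0.17, the first 2 of them called.

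At 24 h the exporter was close to its DMSO level in SKMEL5 and below it in WM2664. SLC30A1 212907_at read 1277 in SKMEL5, just under 1374 and 1286, then 767 in WM2664, beside 1505 and 1478, and 724 in A375, beside 1011 and 1136. The differences were −0.06, −0.96 and −0.57, each ± 0.11, the last 2 called lower. SLC30A1 228181_at read 260 in SKMEL5, beside 278 and 266, then 138, beside 241 and 195, and 302, beside 333 and 354. Its differences were −0.06, −0.65 and −0.18, each ± 0.17, with the WM2664 value called, so that for A375 at 24 h the probe sets differed in call.

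Some SLC30A1 calls rested on single arrays. Those of 228181_at in WM2664 were lost without the first DMSO array of the same time, at −0.53 for 6 h and −0.50 for 24 h. For 212907_at in A375, the 6 h difference became −0.48 and lost its call without the first A375 DMSO array of 6 h, 1 of the arrays with transcripts of another line. The 24 h difference became −0.48 and lost its call without the second A375 DMSO array of 24 h. With all 3 carrying arrays left out, the A375 differences were −0.48 and −0.57, both without a call, whereas its calls in SKMEL5 at 6 h and WM2664 at both times remained. On the deposited values without scaling all 5 calls of this set were lost, while the 6 h differences were −0.74, −0.64 and −0.51. The line calls of 228181_at were lost without scaling as well. Its differences were −0.77 in SKMEL5 and −0.18 in WM2664 at 6 h, and −0.34 in WM2664 at 24 h. The median over all tested probe sets then stood at 0.35 for SKMEL5 and 0.48 for WM2664 after 6 h, and at 0.30 for WM2664 after 24 h. The metallothionein medians without scaling were 0.85, 0.51 and 0.08 at 6 h and 0.74, 1.29 and 1.24 at 24 h, so relative to that shift the WM2664 sets at 6 h again stood near 0.

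**Figure D3:**
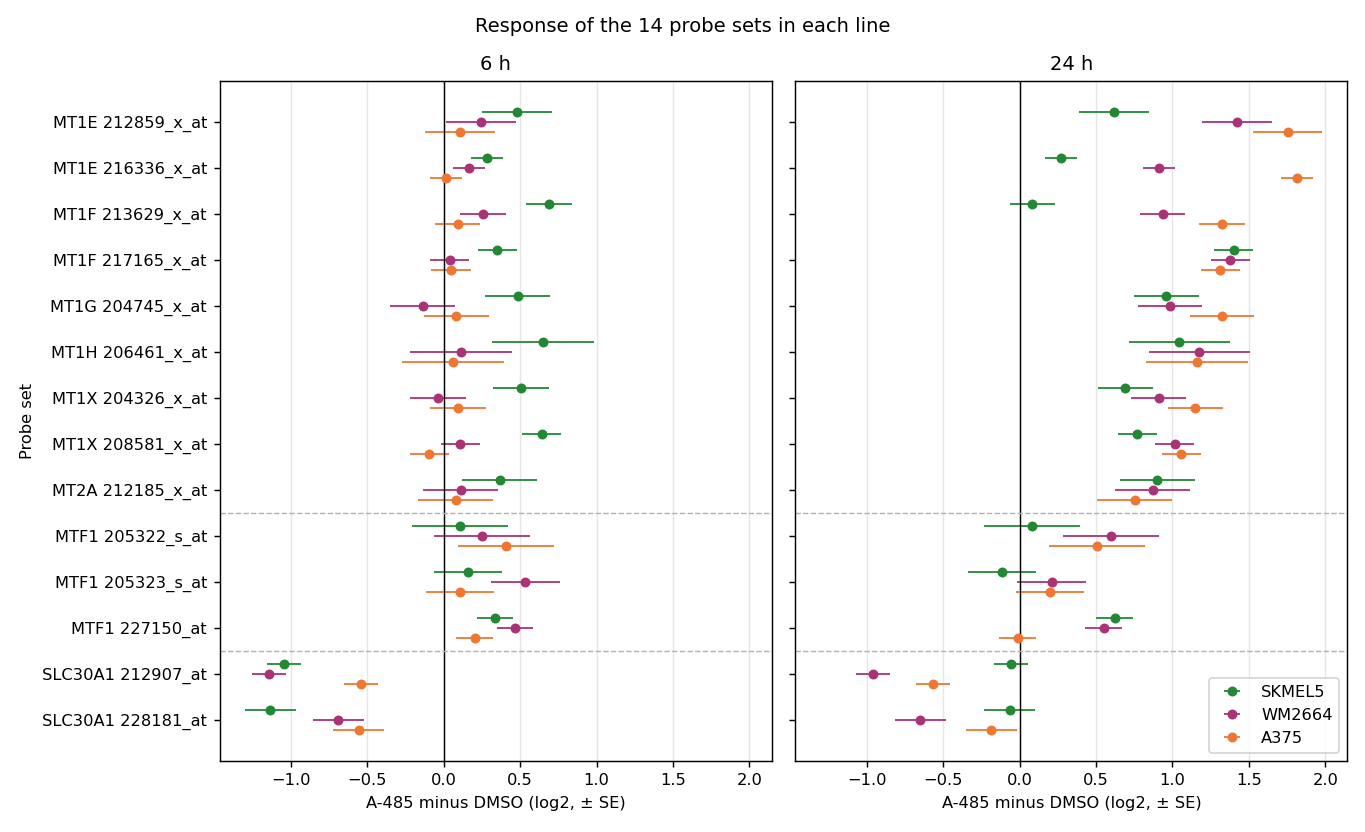
Difference between A-485 and DMSO (log2, bars ± SE from limma, 1 A-485 and 2 DMSO arrays a group) for the 14 tested probe sets by line, with a panel for each time. The metallothionein points, above the first dashed line, have medians of 0.48, 0.11 and 0.08 at 6 h and of 0.77, 0.98 and 1.31 at 24 h, while SLC30A1 lies at or left of 0.

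Over the whole set of 14 probe sets, 2 were called higher and 2 lower in SKMEL5 at 6 h, 1 and 2 in WM2664, and 0 and 1 in A375. The shares of all tested probe sets were 10.3% and 9.81%, 13% and 11.6%, and 3.47% and 6.07%. No result about the members is read from these 6 h counts. At 24 h the counts were 7 and 0 in SKMEL5, 10 and 2 in WM2664, and 7 and 1 in A375. The shares were then 18.4% and 15.9%, 16.7% and 14.9%, and 6.76% and 7.2%. The 24 h difference minus the 6 h difference had a median over the metallothionein sets of 0.19 in SKMEL5, 0.95 in WM2664 and 1.23 in A375. For SLC30A1 212907_at SKMEL5 gave 0.99, WM2664 0.19 and A375 −0.02, each ± 0.16. The smallest of these metallothionein medians and the largest SLC30A1 value were thus both those of SKMEL5.

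The size of the response in each line is compared next, as a description, since these responses chose the members. A375 against the others was called for 3 member sets at 24 h, higher for MT1E 216336_x_at and MT1F 213629_x_at and lower for MTF1 227150_at, and for 1 at 6 h, SLC30A1 212907_at. Over all probe sets 8.65% were called at 6 h and 19.8% at 24 h. SKMEL5 minus WM2664 was called for MT1E 216336_x_at, MT1F 213629_x_at and SLC30A1 212907_at at 24 h and for no member at 6 h, beside 10.4% and 3.18%. MT2A, MT1X, MT1G, MT1H and MT1F 217165_x_at were called in none of these, so a difference between lines in their response was not detected.

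No other zinc exporter was called lower, and more of the importers were called lower than higher at 24 h, though most of the importer calls were lost without scaling. Of 9 further exporters of the SLC30 family 5 were tested. In order of SKMEL5, WM2664 and A375, 1, 2 and 0 of them rose at 6 h and 3, 2 and 2 at 24 h, and none fell. Their medians at 24 h were 0.42, 0.32 and 0.41. Without scaling 1, 3 and 0 rose at 6 h and 1, 1 and 0 at 24 h, and without the 3 carrying arrays 1, 1 and 0 and 3, 1 and 0, so that both A375 calls at 24 h were lost either way. The shares of all probe sets called in each comparison are those given above.

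SLC30A4, which loads zinc into vesicles, rose after 6 h by 0.76 in SKMEL5 and 0.77 in WM2664, and after 24 h by 1.04 in SKMEL5 and 0.41 in A375, each ± 0.09. At 24 h in WM2664 it gave 0.07. SLC30A5, which supplies zinc to enzymes of the secretory pathway, rose after 24 h by 0.72 in SKMEL5 and 0.79 in WM2664, each ± 0.16, and in WM2664 by 0.56 already after 6 h, by a probe set with shared probes. SLC30A7, a Golgi zinc transporter, rose in A375 at 24 h by 0.41 ± 0.11. SLC30A9 rose after 24 h by 0.42 in SKMEL5 and 0.32 in WM2664, each ± 0.09.

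Of 14 importers of the SLC39 family 11 were tested, and 0, 1 and 0 rose and 1, 1 and 2 fell at 6 h. At 24 h 1, 1 and 0 rose and 4, 4 and 1 fell, with medians of −0.20, −0.23 and −0.05. Without scaling 0, 0 and 0 rose and 0, 0 and 1 fell at 24 h, with medians of −0.22, 0.09 and −0.08. Without the 3 carrying arrays 0, 0 and 0 rose and 0, 1 and 0 fell at 6 h, and 0, 0 and 0 rose and 3, 3 and 1 fell at 24 h. SLC39A14, an importer of zinc and iron at the plasma membrane, fell after 24 h in SKMEL5 (−0.77) and WM2664 (−0.80), each ± 0.16. SLC39A10, a plasma membrane zinc importer, gave −0.29, −0.49 and −0.33 at 6 h and −0.52, −0.97 and −0.25 at 24 h, each ± 0.08, all called lower but the last. Without scaling, its 6 h sign was reversed in SKMEL5 and WM2664. SLC39A11 was called in A375 alone, at −1.03 after 6 h and −1.92 after 24 h, each ± 0.17, and SLC39A8 fell in WM2664 after 24 h, to −0.53 ± 0.09.

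**Figure D4:**
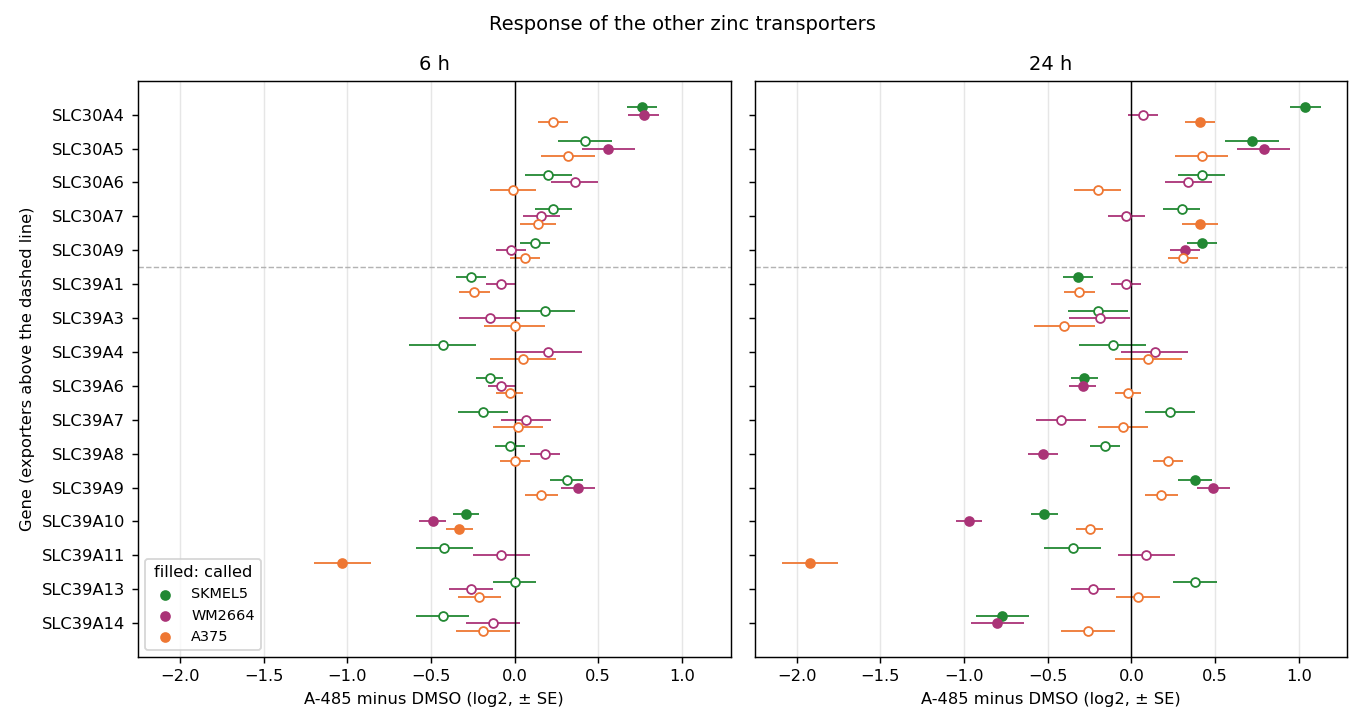
Difference between A-485 and DMSO (log2, bars ± SE from limma) for the 5 tested exporters other than SLC30A1 and the 11 tested importers, by line and time, with filled points for those called. No exporter point is called lower, and the largest fall is that of SLC39A11 in A375 at 24 h, −1.92.

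Metallothionein genes also respond to oxidative stress and to glucocorticoids, so genes of these responses were counted too. Of 15 tested targets of NRF2, the transcription factor of the oxidative stress response, 0, 1 and 0 rose and 4, 3 and 2 fell at 6 h, and none rose and 7, 7 and 3 fell at 24 h. Without scaling 1, 0 and 1 fell at 6 h and 3, 2 and 0 at 24 h, and without the 3 carrying arrays 0, 2 and 0 at 6 h and 6, 5 and 1 at 24 h, where 1 also rose in WM2664. SLC7A11, the cystine importer, fell after 6 h in WM2664 (−1.14) and A375 (−1.56), each ± 0.26. After 24 h it fell in SKMEL5 (−0.93) and WM2664 (−1.32), with the same error. SRXN1, which repairs oxidised peroxiredoxins, gave −0.67, −0.74 and −0.61 at 24 h and −0.40 in SKMEL5 at 6 h, each ± 0.11 and all called. OSGIN1 fell in SKMEL5, with −2.17 after 6 h and −2.46 after 24 h, each ± 0.39. PIR fell in SKMEL5 and WM2664, with −0.27 and −0.40 after 6 h and −0.72 and −1.52 after 24 h, each ± 0.07.

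Of 8 tested glucocorticoid-responsive genes, 0, 1 and 0 rose and 3, 4 and 4 fell at 6 h, and 2, 3 and 0 rose and 1, 4 and 2 fell at 24 h. Without scaling 0, 1 and 2 fell at 6 h, and 0, 2 and 0 rose and 0, 1 and 2 fell at 24 h, while without the 3 carrying arrays 2, 3 and 3 fell at 6 h, and 1, 2 and 1 rose and 0, 3 and 2 fell at 24 h. TSC22D3, a classical target of the glucocorticoid receptor, fell in WM2664 at 24 h, with −1.78 ± 0.29. SGK1, a kinase, gave −0.77, −1.25 and −1.24 at 6 h, all called, and −0.06, −0.54 and −0.97 at 24 h, each ± 0.08, the last 2 called. KLF9, a transcription factor, gave −0.44, −1.07 and −1.41 at 6 h and 0.39, −0.46 and −1.13 at 24 h, each ± 0.10 and all called. CEBPD rose by 1.29 in WM2664 after 6 h and by 0.82 in both SKMEL5 and WM2664 after 24 h, each ± 0.14.

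Copper is bound by metallothioneins too. Of 10 tested copper-handling genes, 0, 2 and 0 rose and 1, 1 and 0 fell at 6 h, and 0, 1 and 0 rose and 2, 1 and 1 fell at 24 h. Without scaling 0, 3 and 0 rose and none fell at 6 h, and 0, 1 and 0 rose and 1, 0 and 0 fell at 24 h. Without the 3 carrying arrays 0, 2 and 0 rose and none fell at 6 h, and none rose and 2, 1 and 0 fell at 24 h. SLC31A1, the main copper importer, fell in SKMEL5, with −0.59 after 6 h and −1.17 after 24 h, each ± 0.17. ATP7B, a copper-exporting ATPase, rose in WM2664 at 6 h by 1.57 ± 0.23, and SLC31A2 did so there by 0.87 ± 0.26. CCS, the copper chaperone of superoxide dismutase, rose in WM2664 at 24 h by 0.64 ± 0.17.

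Genes beside the metallothionein cluster on chromosome 16 moved both ways. Of 5 tested, none rose and 1, 1 and 0 fell at 6 h, and 1, 2 and 0 rose and 2, 2 and 0 fell at 24 h. Without scaling none was called at 6 h, and 1, 1 and 0 rose and 2, 0 and 0 fell at 24 h. Without the 3 carrying arrays 1 in place of 2 rose in WM2664 at 24 h. HERPUD1, of the endoplasmic reticulum stress response, fell after 24 h in SKMEL5 (−0.94) and WM2664 (−0.92) and gave 0.03 in A375, each ± 0.14. NUP93, a nuclear pore protein, fell there too (−1.09 and −1.05) and gave −0.13 in A375, each ± 0.10. At 6 h NUP93 was already called lower in SKMEL5 (−0.61) and WM2664 (−0.42). After 24 h the last 2 genes named here moved as follows. BBS2, a protein of the primary cilium, rose by 0.95 and 0.47 and gave 0.29 in A375, each ± 0.14. NUDT21 rose in WM2664 at 24 h by 0.50 ± 0.09. Without scaling, the 6 h sign was reversed for NUP93, SCO2 of the copper list and ERRFI1 of the glucocorticoid list in WM2664 and for PIR in SKMEL5.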

How the data were processed

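Per the labels' protocols, Qiazol and RNeasy columns were used to extract total RNA, which was labelled as biotinylated cRNA. The authors deposited 1 linear intensity for each probe set on each array. How background was corrected, how arrays were scaled and with what software is not given in the sources used. Between 19.3% and 22.9% of an array's deposited intensities were below 0, and array medians ran from 19.5 to 29.0. Precision is limited by the number of arrays. Intensities were quantile normalized between arrays, set to a floor of 32 and taken to log2. The 23262 probe sets with a mean log2 of at least 5.5 were kept. Of all probe sets, 41091 had 1 gene symbol, 1801 several and 11721 none listed, and 41037 symbols were updated by Entrez identifier.

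A group-means model over all 12 groups was fitted with limma 3.58.1 in R 4.3.3, with 6 residual degrees of freedom from the DMSO pairs and 2.13 more from empirical Bayes moderation. A call means a p under 0.05 after Benjamini-Hochberg adjustment over all tested probe sets of a contrast, and the code was tested on simulated data. Genes of other lists were read by their probe set with the highest mean. The text names every member, up to 4 called genes of each other list by the mean size of their called differences, and the 5 genes most like MT2A and SLC30A1. The members and lists were chosen with earlier results of these data known. Other scalings, floors, filters, probe set choices, moderation, a replicate block and the omission of arrays were tried.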

Additional observations from a re-analysis of the deposited data

Results flagged for a closer look

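For 4 member probe sets limma, fitted over all tested probe sets, called a difference between the lines in the response to A-485. The members were chosen from these responses, so the values are descriptions and not a test. At 24 h the response of MT1E 216336_x_at was larger in A375 than in the other lines by 1.22 ± 0.13 (log2, SE), and smaller in SKMEL5 than in WM2664, by −0.64 ± 0.15. The other MT1E set, 212859_x_at, gave 0.73 ± 0.28 and −0.80 ± 0.32, the same signs but neither called. MT1F 213629_x_at showed the same order, with 0.82 ± 0.18 for A375 against the others and −0.85 ± 0.21 for SKMEL5 against WM2664. The other MT1F set, 217165_x_at, gave −0.08 ± 0.16 and 0.02 ± 0.18. MTF1 227150_at responded less in A375 at 24 h, by −0.6 ± 0.15. The other MTF1 sets did not show this: 205322_s_at gave 0.169 ± 0.385 and 205323_s_at 0.151 ± 0.274, neither called. SLC30A1 212907_at fell less in A375 than in the others at 6 h, a difference of 0.55 ± 0.14, and at 24 h its response was higher in SKMEL5 than in WM2664 by 0.9 ± 0.16. The second SLC30A1 set gave 0.35 ± 0.20 and 0.59 ± 0.24 in these comparisons, neither called.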

How the results depend on the processing

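Member values called at first were counted again under each of 31 alternatives that held them, 18 of which left out 1 array. Of these 1323 repeated counts, 1323 kept the sign and 1190 the call. The same calls recur in them, and some alternatives left out an array of another line, so they are not 1323 separate values. Uncalled values near 0 could change sign. In the main fit, 20.9% of all tested probe sets were called higher and 16.8% lower in the A-485 mean over the lines at 6 h. At 24 h the shares in that mean were 25.4% and 21.1%. Shares of the other comparisons are given above, and those under the alternatives are not given. Without scaling, the median over all tested probe sets at 6 h was 0.35 in SKMEL5 and 0.48 in WM2664. The number of called member sets moved as follows. On the deposited values without scaling it was 0 in A375 at 6 h, 4 in SKMEL5 at 24 h, 13 in the mean at 6 h (first 5) and 0 in DMSO 24 h against 6 h (first 1). With a floor of 1 as well, it was 1, 0 and 0 in SKMEL5, WM2664 and A375 at 6 h, 2 in SKMEL5 and 5 in A375 at 24 h, 10 in the mean at 6 h and 0 in DMSO. Without a filter it was 1 in WM2664 at 6 h, 4 in SKMEL5 at 24 h and 0 in DMSO. A floor of 64, a filter at 7 or trended, robust moderation gave 2 in DMSO. With only the 3 unshared sets it was 2 in SKMEL5 and 3 in the mean at 6 h, and 1, 3 and 1 in the lines and 3 in the mean at 24 h (first 12). With 1 probe set a gene it was 2 in SKMEL5 and 3 in the mean at 6 h. With a replicate block it was 0 in A375 at 6 h and 0 in DMSO. The differences between the first and second DMSO arrays correlated between lines at −0.034 to 0.038. An effect of the replicate number shared by the lines was thus not seen. Whether an A-485 array pairs with the same-numbered DMSO array of its line cannot be read from this. Without the 3 arrays carrying another line it was 0 in A375 at 6 h, 4 in SKMEL5 and 8 in WM2664 at 24 h (first 12) and 0 in DMSO. Leaving out 1 array gave 3 to 6 in SKMEL5, 2 to 3 in WM2664, 0 to 1 in A375 and 3 to 6 in the mean at 6 h, 6 to 7, 9 to 12, 7 to 10 and 11 to 13 at 24 h, and 0 to 2 in DMSO. With unshared sets and with 1 set a gene fewer member sets were tested, which by construction limits how many can be called. The cause of the other moves, those with omitted arrays among them, was not tested. Of 17 member sets, 3 lay at the floor on all 18 arrays.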

Other observations

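The genes whose 12 group means, centred within each line, ran most like those of MT2A were TRPT1 (Pearson r = 0.985), MT1HL1, YPEL5 and ESYT1 (each 0.98) and PREPL (0.978), out of 6529 probe sets that spanned at least 1 log2. TRPT1, a tRNA phosphotransferase, differed by 0.83, 0.87 and 0.72 (log2) at 24 h in SKMEL5, WM2664 and A375, and by 0.37, 0.21 and 0.29 at 6 h. ESYT1, a tether between the endoplasmic reticulum and the plasma membrane, differed by 1.13, 0.96 and 0.63 at 24 h. The genes most like SLC30A1 were TRIM16 (0.978), BIN3 and SLC6A6 (each 0.952), GSE1 (0.948) and ATP2B4 (0.946). TRIM16, a tripartite motif protein, differed by −1.31, −1.67 and −0.72 at 6 h and by −0.41, −1.09 and −0.65 at 24 h. ATP2B4, a calcium pump of the plasma membrane, differed by −1.10, −1.10 and −0.38 at 6 h and by −0.32, −1.43 and −0.73 at 24 h. The likeness is a description over 12 group means that share their arrays.

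Inducible heat shock genes, which cells raise when proteins misfold and which some metals induce, moved both ways. Of 6 tested, 2, 2 and 0 rose and 0, 1 and 1 fell at 6 h in SKMEL5, WM2664 and A375, and 0, 1 and 0 rose and 1, 2 and 2 fell at 24 h. Both SKMEL5 calls at 6 h, those of HSPH1 and DNAJB1, were lost with 75th percentile scaling and without scaling, and without scaling no gene of the list was called in any line at 24 h. Without the 3 carrying arrays none fell at 6 h, and 1, 2 and 1 fell at 24 h. HSPH1, a nucleotide exchange factor of HSP70, rose at 6 h in SKMEL5 and WM2664, by 0.42 and 0.59, each ± 0.10. DNAJB1, an HSP70 cochaperone, rose by 0.33 in SKMEL5 at 6 h and gave −0.34, −0.49 and −0.43 at 24 h, each ± 0.07 and all called. BAG3 rose in WM2664, by 0.69 at 6 h and 0.39 at 24 h, each ± 0.08. HSPB1, a small heat shock protein, fell in WM2664 and A375, with −0.37 and −0.38 after 6 h and −0.44 and −0.35 after 24 h, each ± 0.09, but without scaling its 6 h sign in WM2664 was reversed.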
